A study of Mus musculus with 2 samples.

Results

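Mir126a is the gene of the microRNA miR-126, which is known from endothelial cells. It was found in the count tables of embryonic mouse heart as the row whose stable Ensembl identifier maps to Mir126a in the GENCODE annotation of mm10, and it is 1 of 1973 listed microRNA genes. The tables come from small RNA sequencing of hearts dissected from embryos of mouse strain B6NCrl at embryonic day 10.5, both sexes mixed, with no treatment named in the labels. Replicate 1 was made from a pool of 69 embryos and replicate 2 from a pool of 51, and per the labels both are biological replicates of 1 group. No comparison between conditions, ages or tissues can therefore be made, and the values below compare Mir126a with other genes within a library and the 2 libraries with each other.

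A microRNA is cut from a hairpin in a longer transcript, and one strand of the hairpin stem is then loaded into an Argonaute protein, where bases 2 to 8, the seed, pair with messenger RNAs and lower their output. The hairpin of miR-126 lies inside Egfl7, a gene for a secreted protein of the vessel wall, and it is made together with the Egfl7 transcript. In endothelial cells miR-126 is known to lower Spred1 and Pik3r2, which restrain signalling downstream of vascular endothelial growth factor receptors, and mice that lack it have leaky vessels. At the age studied the heart is lined by endocardium, a specialised endothelium, and blood progenitor cells and platelets are also known to carry miR-126. Libraries of whole hearts do not show which cells a read came from, so the endothelial label of Mir126a is background here.

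The sequences at the locus are shown because the reads counted for Mir126a can come from either arm of its hairpin, and because a further hairpin, Mir126b, is annotated on the other strand. They are from RefSeq (GRCm38.p6) and run 5′ to 3′. Capitals mark miR-126a-3p in the hairpin of Mir126a (chr2:26591357-26591429, plus strand) and the seed in each mature microRNA. The hairpin of Mir126b (chr2:26591363-26591420, minus strand) is in lower case throughout. The other arm of Mir126a is miR-126a-5p.
Mir126a hairpin: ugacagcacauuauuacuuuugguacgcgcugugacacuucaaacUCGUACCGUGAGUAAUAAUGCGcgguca
Mir126b hairpin: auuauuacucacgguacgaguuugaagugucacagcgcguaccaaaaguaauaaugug
miR-126a-3p: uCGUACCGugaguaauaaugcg
miR-126b-5p: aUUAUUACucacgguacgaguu
miR-126b-3p: cGCGUACCaaaaguaauaaugug

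The hairpin of Mir126a is 73 bases long, and miR-126a-3p takes up its bases 46 to 67. RNAfold predicted 27 base pairs in it with a minimum free energy of -31.2 kcal/mol at 37 °C. In that fold 19 of the 22 bases of miR-126a-3p were paired, with partners between bases 7 and 27 of the hairpin. The hairpin of Mir126b is the exact reverse complement of bases 7 to 64 of the Mir126a hairpin. No other of the 1679 mature mouse microRNA names in the RefSeq table has the seed of miR-126a-3p, and the same holds for the seeds of both arms of Mir126b. The hairpin of Mir126a shares no stretch of 20 bases with another annotated microRNA outside its own locus.

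Mir126a (ENSMUSG00000065540.1) lies within Egfl7, which spans chromosome 2, 26580014 to 26593120, on the plus strand of mm10. Of 19 annotated Egfl7 transcripts, 9 span the hairpin. It is intronic in 8 of them and exonic in 1, Egfl7-206, a transcript with a retained intron. In the coding transcript Egfl7-202 the hairpin sits in the 600-base intron between exons 7 and 8, with 293 bases before it and 234 after it. It also lies in an intron of Gm20532, an overlapping gene on the same strand. No other annotated microRNA gene lies on the same strand within 10 kb, so Mir126a is a single hairpin and not a member of a cluster.

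**Figure D1:**
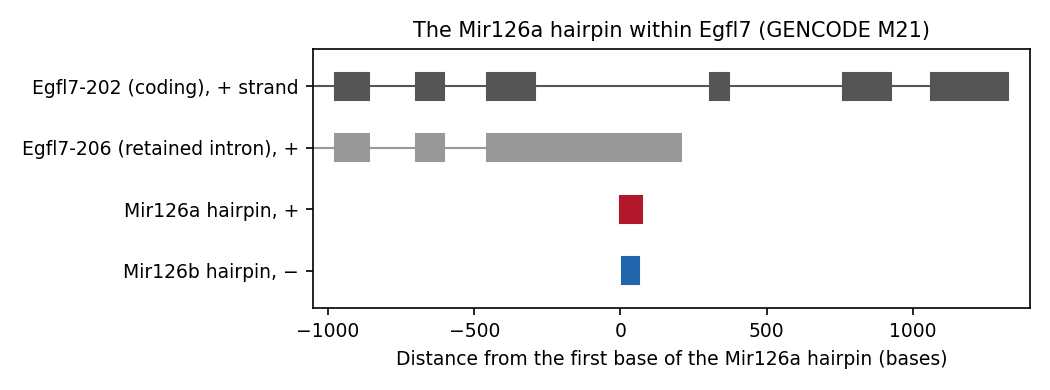
Map of the Mir126a hairpin and its surroundings. The horizontal axis is the distance in bases from the first base of the hairpin, boxes are exons or hairpins and lines are introns, and only the part near the hairpin is drawn. The hairpin falls in the intron between exons 7 and 8 of Egfl7-202 and in the last exon of Egfl7-206, and Mir126b lies opposite to it.

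The libraries held 4163656 and 4789068 counts on the genes' own strands, and 23.3% and 23.5% of all reads mapped to several places and were not assigned to genes. Of the 8 listed heart muscle genes, Mir208a, Mir208b and Mir499, which lie in myosin genes, had at least 3613 counts in each library. The other 5 had few counts in replicates 1 and 2. Mir1a-1 had 17 and 15, Mir1b 19 and 26, Mir133a-1 3 and 15, Mir133a-2 1 and 1, and Mir133b 9 and 7. Each of these 5 has a near-identical copy, so reads common to both were not assigned and its count is a lower limit. The pools differed in microRNAs of other tissues. All 7 listed epithelial genes together held 7068 counts per 1000000 own-strand gene counts (CPM) in replicate 1 and 2089 CPM in replicate 2, and the 4 liver genes 3351 and 293 CPM. The part of these differences in the results below was not tested. In whole hearts a change in the number of cells of a type and a change in RNA per cell cannot be told apart.

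Mir126a was among the most abundant microRNA genes of the heart in both pools. It had 221948 own-strand counts in replicate 1 and 265810 in replicate 2, which is 53306 CPM (95% exact interval 53090 to 53522) and 55503 CPM (55299 to 55709). Both libraries were thus close to the mean of 54405 ± 1554 CPM (SD, n = 2), or 5.44% ± 0.155 of own-strand gene counts. With reads mapped to several places added to the total, the mean was 35089 CPM. The intervals do not overlap, so the small difference exceeded counting error, which is all that the intervals cover. As a share of every sequenced read, unmapped reads included, Mir126a made up 2.21% and 2.42%. The files count reads per hairpin and do not separate the arms, so the shares of miR-126a-3p and miR-126a-5p are not given here. Each read is taken as 1 small RNA, so counts were compared between genes without division by length.

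Mir126a had rank 3 in replicate 1 and rank 4 in replicate 2 among all listed genes. Reads mapped to several places, 23.3% and 23.5% of all reads, were not assigned, so genes with similar copies are undercounted. The ranks here and below hold for assigned counts only. Mir335, Mir143 and Mir322 stood above it in mean CPM. Mir335, in an intron of the imprinted gene Mest, was 2.61-fold and 2.94-fold above Mir126a in replicates 1 and 2. Mir143, known from smooth muscle, was 1.29-fold and 1.53-fold above it. Mir322, the first gene of an X-linked cluster, changed places with it, since Mir126a had 1.08 times the counts of Mir322 in replicate 1 and 0.887 times in replicate 2. The log2 ratio of Mir126a to Mir322 was -0.03 ± 0.20 (SD, n = 2), and these neighbours in the order therefore do not differ beyond their spread. Mir335 and Mir143 were above Mir126a by more than the spread of the ratio, with log2 ratios of Mir126a to them of -1.47 ± 0.12 and -0.49 ± 0.17.

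Below Mir126a came Mir17, Mir99a and Mir208b. Mir126a had 1.51 and 1.52 times the counts of Mir99a, so the gap to this gene was alike in both pools. Mir17, the first hairpin of the Mir17-92 cluster of proliferating cells, was closer in replicate 1, where Mir126a had 1.14 times its counts, than in replicate 2, where it had 2.01 times. The log2 ratio to Mir17, 0.60 ± 0.58, barely exceeded its SD. Mir208b, in an intron of the myosin gene Myh7, had rank 5 in replicate 2 and rank 9 in replicate 1, and the log2 ratio of Mir126a to it, 0.75 ± 0.84, stayed within its SD. All 16 genes that followed Mir126a among the 20 highest means had fewer counts than Mir126a in both libraries. No test of these orders was made, because the lowest two-sided p of an exact sign-flip test over 2 libraries is 0.5.

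**Figure D2:**
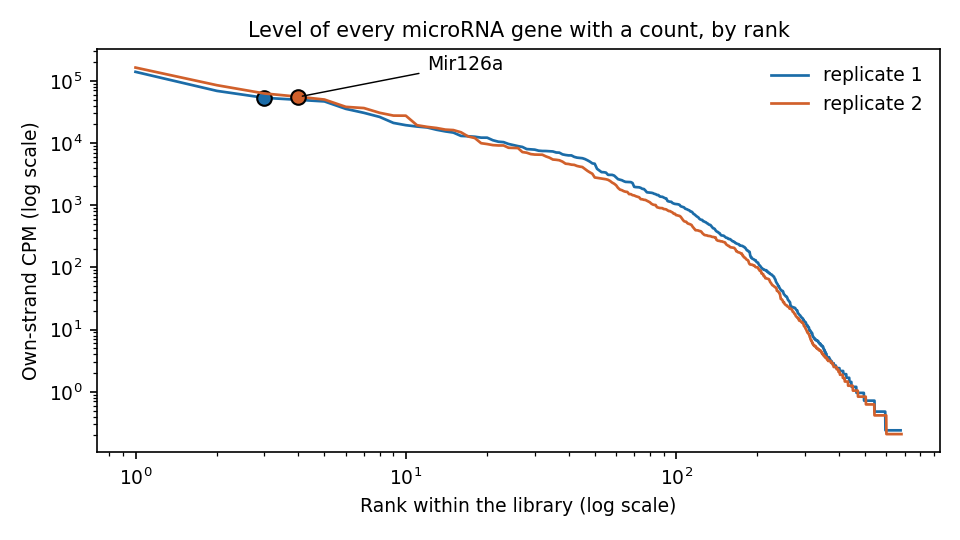
Own-strand CPM of every microRNA gene with at least 1 count against its rank within the library, both axes on a log scale, with 1 line per replicate. The marked points are Mir126a, at 53306 CPM and rank 3 in replicate 1 and at 55503 CPM and rank 4 in replicate 2.

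Among microRNA genes that lie within a protein-coding gene on the same strand, Mir126a was second in both libraries, after Mir335. These 854 listed genes held 47.7% and 52.4% of own-strand counts, of which Mir126a made up 11.2% and 10.6%. Mir208b in Myh7, Mir26b in Ctdsp1 and Mir30e in Nfyc followed it in mean CPM. Mir26b, whose host encodes a phosphatase of RNA polymerase II, had 30548 and 30605 CPM. Mir30e, whose host encodes a subunit of the transcription factor NF-Y, had 26274 and 27501 CPM. Mir126a was also second to Mir335 among the 1468 listed genes with no other microRNA gene within 10 kb on their strand, and it held 12.2% and 11.5% of the counts of that group.

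Mir126a held nearly all counts of the short list of endothelial microRNA genes. The list was Mir126a, Mir126b, Mir218-1 and Mir218-2, of which Mir126b is not among the listed identifiers. Mir218-1 and Mir218-2 lie in Slit2 and Slit3, genes for guidance proteins, and are known from vessels and from motor neurons. Mir218-2 had 375 and 230 counts, or 90.1 and 48.0 CPM, and Mir218-1 had 40 and 54 counts, or 9.61 and 11.3 CPM. Mir126a therefore had 592 times (95% exact interval 535 to 657) and 1156 times (1016 to 1321) the counts of Mir218-2. Its share of the list was 99.81% (95% exact interval 99.79 to 99.83) in replicate 1 and 99.89% (99.88 to 99.91) in replicate 2. Mir218-1 and Mir218-2 share a stretch of at least 20 bases, and reads common to both were not counted. Their counts are for that reason lower limits. The ratios to them and the share of Mir126a in the list are upper limits.

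A further list holds microRNA genes that endothelial cells express together with other cells, and 15 of its 16 genes were listed. Their sum exceeded Mir126a in both libraries, with 113563 and 126937 CPM, or 2.13 and 2.29 times the counts of Mir126a. Mir322 led the list in both libraries, and 6 of the 15 genes share 20 or more bases with another gene, so the sum is a lower limit. Mir130a, known to promote vessel formation, had 18387 and 16425 CPM, so Mir126a had 2.90 and 3.38 times its counts. Mir296, linked to growth factor receptor sorting in endothelium, had 4642 and 3822 CPM. Mir210, induced by low oxygen, had 792 and 927 CPM. Mir221 and Mir222, a pair of X-linked genes common in cultured endothelium, were scarce here, with 34.6 and 15.5 CPM for Mir221 and 23.3 and 16.1 CPM for Mir222.

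In assigned counts, Mir126a stood below the smooth muscle list, close to the heart muscle list and above the mesenchyme and blood lists. The names of these lists are background too, so the order is one of genes and not of cell lineages. The smooth muscle list rests on Mir143, since Mir145a had 3667 and 4842 counts and Mir145b had 0. Mir143, the highest of the smooth muscle genes, had 286727 and 407125 counts, and Mir126a had 0.774 (95% exact interval 0.770 to 0.778) and 0.653 (0.650 to 0.656) times as many. Mir126a had 2.53 (2.51 to 2.55) and 1.11 (1.10 to 1.12) times the counts of Mir208b, the highest heart muscle gene. The excess over this gene was clear in replicate 1 and small in replicate 2. The heart muscle list as a whole, of which 8 genes were listed, had 34752 and 69061 CPM. Mir126a was therefore above the summed muscle genes in replicate 1, with 1.53 times their counts, and below them in replicate 2, with 0.804 times. Reads that fit several copies of a gene, such as those of Mir1a or Mir133a, were not assigned. That applies to 5 of the 8 listed muscle genes, which makes the muscle sum a lower limit and the ratios to it upper limits.

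Mir21a, the highest gene of the mesenchyme list and widely expressed in fibroblasts, had 16323 and 19325 CPM. Mir126a had 3.27 and 2.87 times its counts, and 2.04 and 2.22 times those of all 6 mesenchyme genes together. Of these, 3 share 20 or more bases with another gene, so the ratios to the sum are upper limits. Mir451a, which is needed for red blood cell maturation, had 947 and 1509 CPM. Mir126a had 56.3 (54.5 to 58.1) and 36.8 (35.9 to 37.7) times its counts. Mir155, a microRNA of activated leukocytes, had 214 CPM in each library, and Mir126a had 249 and 259 times its counts. The leukocyte and platelet list is incomplete, since Mir142 is not among the listed identifiers and the row of its antisense neighbour Mir142b held 10687 and 8151 opposite-strand counts and no own-strand count. With counts over both strands, the log2 ratio of Mir126a to the highest row of this list fell from 7.99 to 4.70.

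**Figure D3:**
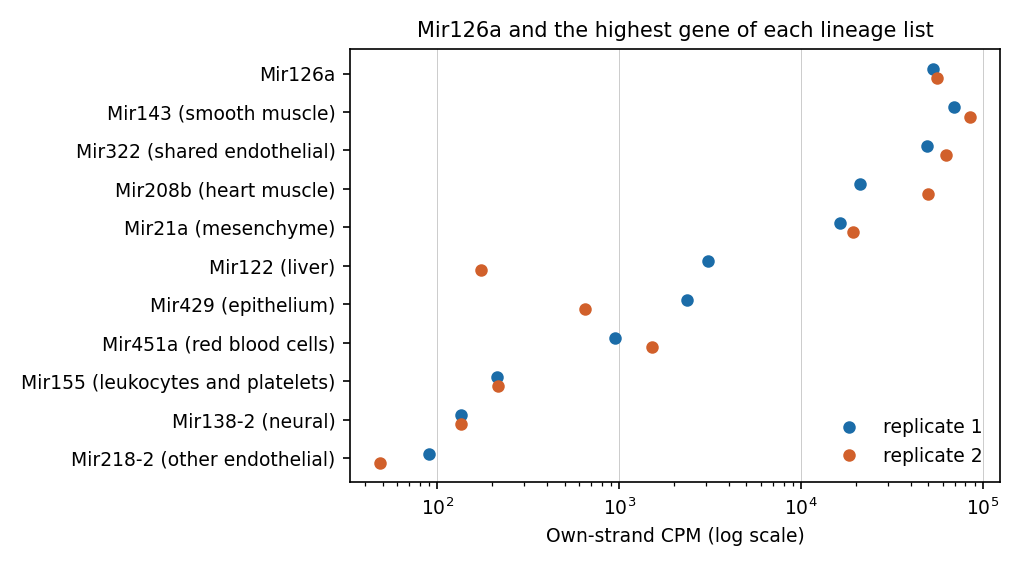
Own-strand CPM on a log scale for Mir126a and for the highest gene of each lineage list, 1 point per replicate. Mir126a lies between Mir143 and Mir208b in both replicates and far above the highest blood, epithelial, liver and neural genes, whose points run from 3078 CPM down to 134 CPM.

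Genes of epithelium, liver and nerve were far below Mir126a, but by a margin that differed between the pools. Mir126a had 22.6 and 85.2 times the counts of Mir429, the highest epithelial gene and a member of the Mir200 family. It had 17.3 and 318 times those of Mir122, the main liver microRNA. The difference lay in the epithelial and liver genes. Mir122 had 3078 CPM in replicate 1 and 175 CPM in replicate 2, while Mir126a differed 1.04-fold. Mir138-2, the highest neural gene, had 135 and 134 CPM, and Mir126a had 394 and 413 times its counts. Each of the 11 listed neural genes shares 20 or more bases with another gene, which makes these ratios upper limits.

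Over the 10 lists, the log2 ratio of Mir126a to the summed list ran from -1.14 ± 0.07 for the shared endothelial genes to 9.47 ± 0.57 for the other endothelial genes (SD, n = 2). It was -0.51 ± 0.17 for smooth muscle and 1.09 ± 0.09 for mesenchyme, so both orders were alike in the 2 pools. For heart muscle it was 0.15 ± 0.66, which does not differ from 0 beyond its spread. It was 5.27 ± 0.36 for red blood cells, 3.82 ± 1.28 for epithelium, 5.78 ± 2.53 for liver and 7.25 ± 0.21 for neural genes. Only the smooth muscle, red blood cell and epithelial lists hold no gene that shares 20 or more bases with another gene. The ratios to the other lists, heart muscle and mesenchyme among them, are upper limits.

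**Figure D4:**
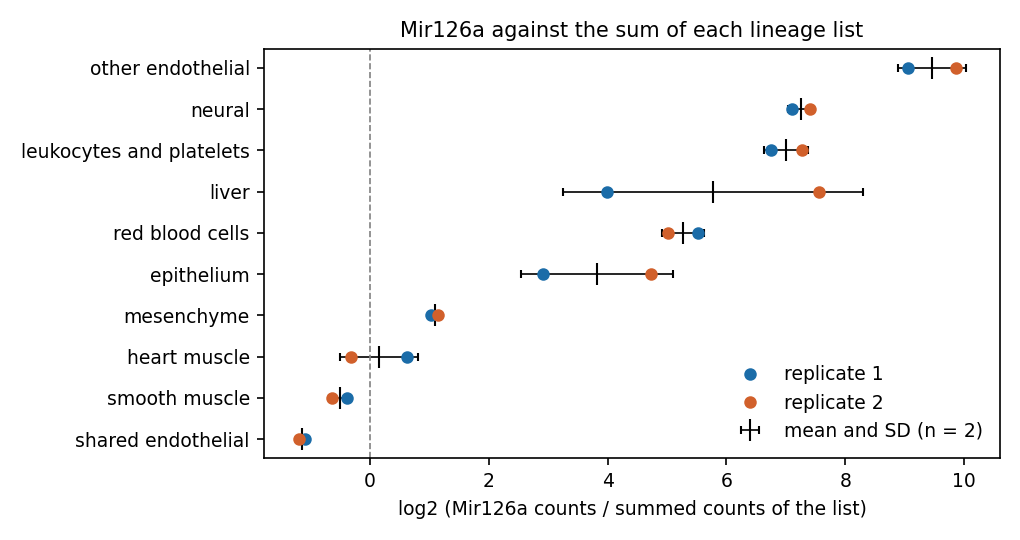
The log2 ratio of Mir126a counts to the summed counts of each lineage list, with 1 point per replicate, a tick at the mean and a bar of 1 SD on each side (n = 2). Points right of the dashed line at 0 are lists that Mir126a exceeded in assigned counts. Heart muscle is the list whose points fall on both sides of the line, at 0.62 and -0.32.

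Per total counts, Mir126a differed little between the pools, whereas its standing among abundant genes depended on the scale. Its CPM in replicate 2 was 1.04 times that in replicate 1, and its coefficient of variation over the 2 libraries was 2.86%, against a median of 16.6% over the 79 genes with at least 1000 CPM in both. Lower values were found for 6 of these genes. Among the 10 highest means, Mir99a and Mir26b had lower coefficients, 2.09% and 0.132%, while Mir208b had 57.6% and Mir351 46.2%. These coefficients describe 2 libraries and depend on the total as the scale. With trimmed mean of M-values (TMM) scaling, which centres the bulk of the genes, 40 of the 79 genes had a smaller absolute log2 ratio between the libraries than Mir126a, against 6 with total counts.

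The change of scale matters for the direction of a gene between the libraries, and not for its ratio relative to Mir126a. With TMM scaling the log2 ratio of replicate 2 over replicate 1 was 0.33 for Mir126a (95% exact interval 0.32 to 0.34), against a median of -0.01 over 424 tested genes. With total counts it was 0.06 (0.05 to 0.07), against a median of -0.29. The change of scaling moved the ratio of Mir126a by -0.27. It moves all genes almost alike, so the distance of Mir126a above the median of all tested genes, 0.34, could not differ between scalings. Mir126a passed an exact binomial test between the libraries (Benjamini-Hochberg adjusted over all tested genes at 0.05) under both scalings. Passing was common. With TMM scaling 61.6% of tested genes passed, 30.4% of tested genes as higher in replicate 2 and 31.1% as lower. With total counts 61.8% passed, 15.6% as higher and 46.2% as lower. The test compares these 2 libraries and covers counting error only. In size the TMM ratio of Mir126a was below the median absolute ratio of all tested genes, 0.47, and 37.5% of them had a smaller one. Among the 79 abundant genes it was slightly above the median of 0.32. With total counts 4.72% of all tested genes had a smaller absolute ratio than Mir126a.

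The lineage genes differed between the libraries in both directions, each tested against equality and not against the ratio of Mir126a. The shares of all tested genes to read these counts against are 30.4% higher and 31.1% lower with TMM scaling, and 15.6% and 46.2% with total counts. With TMM scaling 4 of 6 tested heart muscle genes passed the test as higher in replicate 2 and 0 as lower, with a median log2 ratio of 0.96. Both tested smooth muscle genes were higher, Mir143 at 0.58 and Mir145a at 0.47. Of 6 mesenchyme genes 1 was higher, Mir21a at 0.52, and 3 were lower, among them Mir214 at -0.92, and with total counts 1 was higher and 5 were lower. The counts for heart muscle and smooth muscle were the same with total counts. Of 15 shared endothelial genes 9 were higher and 3 lower, with a median of 0.25, and with total counts 6 were higher and 7 lower, with a median of -0.03. All 7 epithelial genes were lower, and of 4 liver genes 1 was higher and 3 were lower, with the same counts under total counts. Of the other endothelial genes, Mir218-2 was lower, with a TMM ratio of -0.63. The ratio of Mir218-1 was 0.50 and missed the threshold (adjusted p = 0.146, exact binomial test).

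The 5 genes with at least 1000 CPM in both libraries whose TMM ratio lay nearest to that of Mir126a were Mir28a, Mir30e, Mir99a, Mir26b and Mir151. Their log2 ratios ran from 0.27 for Mir151 to 0.34 for Mir30e, within 0.06 of that of Mir126a. This likeness rests on 1 ratio between 2 libraries. Of these genes Mir30e, Mir99a and Mir26b are also among the 10 highest means, with mean CPM of 26887, 35927 and 30577. Mir126a stood above all of them, with a mean of 54405 CPM.

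**Figure D5:**
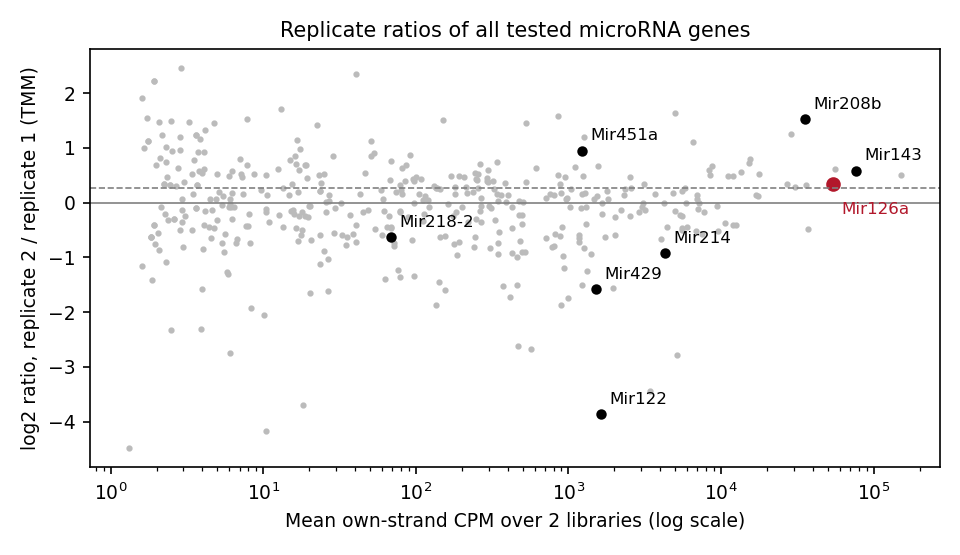
The log2 ratio of replicate 2 over replicate 1 (TMM scaling) against mean CPM on a log scale for the 424 tested genes, with Mir126a in red and named lineage genes in black. The solid line is equality under TMM scaling and the dashed line equality under total counts, and Mir126a, at 0.33, lies just above the dashed line.

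Reads on the strand opposite to Mir126a were rare but present in both libraries. There were 37 in replicate 1 and 23 in replicate 2, against 221948 and 265810 on its own strand, so the opposite-strand share was 0.0167% (95% exact interval 0.0117 to 0.0230) and 0.00865% (0.00548 to 0.0130). This strand carries the annotated hairpin of Mir126b (ENSMUSG00000105799.1), whose arm miR-126b-5p overlaps miR-126a-3p on the opposite strand over 19 bases. The files do not give read positions within the hairpin, so these reads were not assigned to an arm. Taken as a level, they are 8.89 and 4.80 CPM. The ratio of replicate 2 over replicate 1 was 0.540 (0.307 to 0.934, scaled by total counts), while the own-strand ratio was 1.04. The change from TMM scaling to total counts moved the log2 ratio of Mir126a by -0.27. The opposite-strand ratio shifts by the same amount, so with TMM scaling the upper end of its interval would exceed 1. The lower opposite-strand level in replicate 2 therefore holds beyond counting error only with total counts.

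Most abundant genes had no read on the opposite strand. Of the 79 genes with at least 1000 CPM in both libraries, 72 had none in either, and Mir126a had the most opposite-strand counts of these 79 in both libraries. As a share of the reads at the gene, the mean of Mir126a, 0.0127%, had rank 3, after Mir337 with 0.0969% and Mir27b with 0.0305%. Mir337 had 18 and 2 opposite-strand counts, and Mir27b had 0 and 3, which is at the limit of 3 counts that a count of 0 allows. Mir335, with more own-strand reads than Mir126a, had 1 and 5.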

How the data were processed

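Small RNA of 2 libraries was analysed. The deposited tables hold raw read counts per microRNA gene, made by the authors from each library's own alignment to mm10 with GENCODE M4 models, as a README deposited beside each library states. For the aligner and the trimming of adapters, the sources used here give no name. For each of the 1973 identifiers there are counts over both strands, on the gene's own strand and on the opposite strand. Library sizes leave out rows without a gene: unmapped reads (26.3% and 25.5%), reads mapped to several places (23.3% and 23.5%) and own-strand reads outside listed genes (8.98% and 7.41%).

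CPM are own-strand counts per 1000000 own-strand gene counts. Symbols and positions came from GENCODE M21, also mm10, for 1894 identifiers. Near-identical copies are genes sharing 20 or more bases. Intervals are exact (Clopper-Pearson, 95%, scipy 1.17.1) and cover counting error alone, not differences between pools. No molecular identifiers mark reads of 1 molecule, so reads were treated as independent and the intervals can be too narrow. A count of 0 allows up to 3 counts (0.721 and 0.626 CPM). Genes reaching 10 counts in either library were tested by the exact two-sided binomial test given TMM-scaled sizes (edgeR 4.0.16), with a prior count of 0.5 in log2 ratios. With 1 group no quasi-likelihood test was possible. Folds were predicted with ViennaRNA 2.7.2. The binomial test was tested on simulated data.

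The genes named are Mir126a, Mir126b, the endothelial list, the highest gene of each other list, the 3 genes above and below in mean CPM, the 5 nearest replicate ratios, the 5 highest genes within protein-coding genes and the 3 highest opposite-strand shares. Others, such as Mir130a, Mir296, Mir210, Mir221, Mir222, Mir145a, Mir214 and Mir351, were named after their values were seen. The gene, lists and tests were chosen with earlier results of these data known. Alternatives were other scalings, totals, strands, filters and prior counts, genes without copies, and each replicate alone.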

Additional observations from a re-analysis of the deposited data

How the results depend on the processing

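The level of Mir126a depended on the total it was divided by. Its mean was 51953 CPM with counts over both strands, 64134 with a total that leaves out Mir335, 59914 with a total without genes that have a near-identical copy, and 35089 with reads mapped to several places added to the total. The rank ranged from 3 to 4 with either replicate left out. The log2 replicate ratio of Mir126a stayed positive and past the test in all 7 alternatives, from 0.06 with total counts to 0.44 with genes of at least 100 counts. At the counts of Mir126a even a ratio of 0.06 passes, and the prior count does not enter the test. Passing in all 7 therefore says little, and the size of the ratio did depend on the setting. The number of genes past the test, 261 of 424 tested, ranged from 206 of 331 to 270 of 433. The share of tested genes that passed, 61.6%, depended on the filter. It fell to 34.3% (254 of 740) when genes with low counts were kept. It rose to 80.8% (244 of 302) when genes with a count sum below 100 were left out. Of 76 alternative values of the lineage ratios 71 kept their direction and moved by less than 1 SD. Leaving out 1 of 2 libraries always moves a mean by less than 1 SD. Those values could therefore fail only by a change of direction. With a replicate left out, the log2 ratio to Mir322 ranged from -0.17 to 0.11 and that to the summed heart muscle genes from -0.32 to 0.62, so both turned with the library used. Without genes that have a copy, the log2 ratio to the shared endothelial sum was -0.67. With counts over both strands the log2 ratios to the leukocyte list were 4.70 for its highest row and 4.44 for its sum, with the opposite-strand counts at Mir142b included. For the neural list, and for the other endothelial genes, no gene without a copy was left, so that setting gave no value. No paired analysis was possible because the labels give 1 group. At these depths counting error is small for Mir126a, and the 2 pools limit the precision.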

Other observations

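The seed of miR-126a-3p has few matches in messenger RNAs. The 7 bases that pair with its bases 2 to 8 are CGGTACG, searched on the transcript's own strand in 1 annotated 3′ UTR per protein-coding gene (the longest in GENCODE M21, at least 30 bases). They occurred in 33 of 20787 UTRs, or 0.159%. The median over the 1398 different seeds of mature mouse microRNAs in the RefSeq table was 10.4%, and 0 of these seeds had fewer matches. The motif holds a CG pair at each end. For comparison, the seed of miR-208b-3p matched 1.54% of UTRs, that of miR-451a 1.76% and that of miR-21a-5p 7.20%. The shorter match GGTACGA, which pairs with bases 2 to 7 and is followed by A, occurred in 153 UTRs, or 0.736%. UTR length and base composition were not matched between seeds, and a match is a description and not a target site.

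Of the known targets Spred1 and Pik3r2, Spred1 holds 1 such match in capitals, GGTACGA, at bases 511 to 517 of the 4330-base 3′ UTR of Spred1-201 on chromosome 2.
Spred1 match: tttaactaaatgtaaGGTACGAacta
Neither motif is in the 514-base 3′ UTR of Pik3r2-201, which says only that these letters are not in this window. The libraries hold small RNA, so no messenger RNA level bears on these matches.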
